A study of Mus musculus with 81 samples.

Results

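The transcripts described here are those of the solute carrier genes, the large set of mouse genes whose symbols start with Slc followed by a family number. Of 24391 gene symbols in the count table, 344 had such a symbol. The glucose carriers Slc2a1 and Slc2a3 and the lactate carrier Slc16a3 were left out by the rule. Of the other 341, 159 reached a mean of 5 CPM (counts scaled to the library total) in at least 1 of 16 groups of libraries and are the members. The other 182 stayed below that level. Just inside it were Slc1a2 (highest group mean 5.31 CPM), Slc10a1 (5.66 CPM) and Slc26a10 (5.86 CPM), and just outside it were Slc25a2 (4.99 CPM), Slc4a5 (4.65 CPM) and Slc6a20b (4.52 CPM). The members belong to 41 families, of which family 25 holds 34, family 39 holds 11, family 7 holds 8 and family 30 holds 7. The rule also took in 4 symbols with letters beyond the pattern. Slc9a3r1 (a scaffold protein), Slc4a1ap, Slc7a6os and Slc2a4rg-ps (a pseudogene by its name) are named after a carrier and are counted with its family.

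Solute carriers are membrane proteins that move amino acids, sugars, metals, ions, vitamins, nucleosides and metabolites across the plasma membrane and the membranes of organelles, as facilitators, exchangers or symporters driven by ion gradients. In T cells they set the uptake of nutrients on which growth and division depend, and family 25 carries metabolites across the inner mitochondrial membrane. RBPJ is the DNA-binding factor of the Notch pathway: it recruits repressors when Notch is silent, and activates genes together with the Notch intracellular domain (NICD) when Notch has been cleaved.

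RNA sequencing counts came from a hybridoma line of mature mouse T cells grown in IMDM medium with nonessential amino acids, in 41 libraries of 5 experiments. In the first, lines 2-12 and 2-14, edited by CRISPR to deplete RBPJ, were compared with the control line named Control_sgRbpj in the labels (2 libraries per line). In the second, cells infected with NICD1-ER, a NICD1 fused to an estrogen receptor domain, received 1 µM 4-hydroxytamoxifen (4-OHT) for 4, 8 or 24 h, or ethanol for 24 h. As ethanol was given for 24 h only, the 4 h and 8 h comparisons differ in time as well as in 4-OHT. The part of time in them was not tested. In the third, cells were infected with GFP-KYOT2 wild type, with GFP-KYOT2 WWAA, whose binding to RBPJ is defective, or with GFP alone (3 libraries each). KYOT2 is a protein that binds RBPJ. In the fourth, 20 µg/ml of the gamma-secretase inhibitor DAPT (GSI) was given for 24 h and compared with DMSO (2 libraries each). In the last, RBPJ-depleted cells and their control cells were each infected with BioNICD1 wild type or with Biocontrol, its control vector (3 libraries for each of 4 groups); the labels do not say which edited line this was. The labels do not state that replicates came from separate cultures, so p-values measure only the spread between these samples, which may be technical.

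Library totals ran from 2377028 to 14244209 counts. The series also lists a replicate 1 of the NICD1-ER ethanol group and of the 24 h 4-OHT group. No column was matched to either, so both were left out. Replicates 1 and 2 of NICD1-ER at 4 h and at 8 h differed by less than sampling noise, so the counts of each pair were added to give 1 sample, and every NICD1-ER group had 2 samples. The GSI libraries and the 24 h 4-OHT libraries differed by less than sampling noise too. They were left unsummed, because a sum would have left these groups with 1 sample. If either pair is technical, the p-values with GSI or at 24 h are too small, and this was not tested. Replicate 3 of each KYOT2 group, replicate 1 of the depleted cells with BioNICD1 and replicate 3 of the depleted cells with Biocontrol stood apart from the others of their groups. Rbpj, the targeted gene, was at 31.4 to 59.6 CPM in the edited lines against 133 to 182 CPM in the control line, and at 18.7 to 27.4 CPM in depleted cells against 83.9 to 94.1 CPM in control cells of the BioNICD1 experiment. A list of 12 T-cell markers summed to 885.5 to 2424.6 CPM in every library, while the B-cell list reached at most 4.81 CPM and its member Ms4a1 had no count. The myeloid list summed to 85.4 to 89.3 CPM with GSI against 56.7 to 62.9 CPM with DMSO, and to 21.5 to 30.6 CPM in the edited lines against 42.5 to 58.9 CPM in the control line. It summed to 8.40 to 14.5 CPM in depleted against 27.5 to 33.3 CPM in control cells of the BioNICD1 experiment, with either vector. With NICD1-ER it summed to 38.8 to 42.3 CPM in ethanol, 27.4 to 28.4 CPM at 4 h, 26.7 to 31.7 CPM at 8 h and 39.9 to 41.005 CPM at 24 h. The erythroid list summed to 1.47 to 4.37 CPM in the edited lines against 10.5 to 14.4 CPM in the control line, and the T-cell list to 2143 to 2425 CPM with BioNICD1 against 1539 to 1687 CPM with Biocontrol in control cells. Cd68 was the highest gene of the myeloid list in every group, from 6.92 CPM in depleted cells with BioNICD1 to 84.7 CPM with GSI. Itgam reached at most 5.50 CPM, Lyz2 3.48 CPM and Csf1r 0.593 CPM, and Adgre1, Cd14 and S100a8 stayed lower. The erythroid sum in the control line was mostly Hba-a1 (11.3 CPM), while Klf1 reached at most 0.731 CPM and Hbb-b1 0.437 CPM. The part of these lists in any result was not tested. These are bulk samples, in which fewer cells of a type and less RNA per cell cannot be told apart.

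The 3 promoters below belong to members that recur in the results: Slc7a11, which moved in opposite directions with GSI and with BioNICD1, Slc30a1, which was called in 7 comparisons, and Slc44a2, which was called in 8. The counts of 7 and 8 include the interaction. Each promoter shows the 250 bases before the start of the gene in RefSeq (GRCm38.p6), read along the gene's own strand.
Slc7a11: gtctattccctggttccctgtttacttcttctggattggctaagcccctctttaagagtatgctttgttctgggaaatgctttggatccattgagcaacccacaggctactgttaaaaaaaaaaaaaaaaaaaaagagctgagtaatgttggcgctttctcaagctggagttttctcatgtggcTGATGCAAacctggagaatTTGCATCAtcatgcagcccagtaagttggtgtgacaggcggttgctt
Slc30a1: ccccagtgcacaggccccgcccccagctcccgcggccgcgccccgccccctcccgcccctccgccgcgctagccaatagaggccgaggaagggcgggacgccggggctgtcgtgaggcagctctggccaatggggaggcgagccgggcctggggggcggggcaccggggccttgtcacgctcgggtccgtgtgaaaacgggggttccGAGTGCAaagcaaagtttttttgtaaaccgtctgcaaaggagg
Slc44a2: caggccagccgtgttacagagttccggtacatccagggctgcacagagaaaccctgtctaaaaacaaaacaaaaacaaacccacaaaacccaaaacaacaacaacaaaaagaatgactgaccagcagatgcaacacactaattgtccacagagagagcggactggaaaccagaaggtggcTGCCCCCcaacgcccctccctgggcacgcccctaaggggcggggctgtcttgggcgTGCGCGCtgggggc
The Slc7a11 window lies on the minus strand at chr3:50443614-50443863, that of Slc30a1 on the plus strand at chr1:191906531-191906780, and that of Slc44a2 on the plus strand at chr9:21320469-21320718, for the first of 2 listed starts. Capitals in Slc7a11 mark 2 matches to TGATGNAA, the letters of the ATF4 and C/EBP composite element, 66 bases before the start on the gene's strand and 47 bases before it on the other. The capitals in Slc30a1 (43 bases before the start, other strand) and in Slc44a2 (70 and 14 bases before it, gene's strand) mark TGCNCNC. This is a loose form of the core of the metal response element, with any base at N, so a match need not hold that core. Both strands were searched. The Slc7a11 window also holds 1 match to TGGGAA, the core of the RBPJ site, 180 bases before the start on the gene's strand and left in lower case; those of Slc30a1 and Slc44a2 hold no such letters. TGATGNAA was present in 4.07% of the 123 member promoters in the table, in 2.46% of promoters of tested genes and in 3.91% of all promoters. For TGCNCNC the shares were 52.9%, 56.4% and 47.2%, and for TGGGAA they were 19.5%, 23.3% and 24.1%. CACGTG, the E-box, was found in 15.4% of member promoters, 9.77% of promoters of tested genes and 6.86% of all promoters. A match is a description of the letters and not evidence of binding.

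Every experiment was tested on its own with edgeR's quasi-likelihood test, with Benjamini-Hochberg adjustment over all genes and a threshold of 0.05. In the edited lines, 25 of 155 tested members passed, 18 higher and 7 lower than in the control line, where 9.89% of all genes were called (6.21% higher, 3.68% lower). With NICD1-ER, 15 of 157 passed at 4 h (11 higher, 4 lower), where 6.25% of all genes were called (3.16% higher, 3.09% lower). At 8 h 22 passed (11 higher, 11 lower), beside 10.4% of all genes (5.06% higher, 5.31% lower), and at 24 h 24 passed (14 higher, 10 lower), beside 10.8% (6.59% higher, 4.22% lower). These 3 comparisons share the ethanol samples, all of 24 h. KYOT2 wild type was higher than GFP in 1 of 149 members, where 0.888% of all genes were called (0.807% higher, 0.0807% lower), and higher than WWAA in 3, where 1.87% were called (1.26% higher, 0.601% lower). KYOT2 WWAA differed from GFP in none with edgeR, where 0.0897% of all genes were called (0.0717% higher, 0.0179% lower), with 15 members at an unadjusted p under 0.05 and none called by DESeq2. With GSI 44 of 157 passed (34 higher, 10 lower), beside 20.7% of all genes (9.16% higher, 11.6% lower). BioNICD1 changed 49 of 154 members in control cells (31 higher, 18 lower), beside 32.9% of all genes (18.7% higher, 14.2% lower). In RBPJ-depleted cells it changed 5 (none higher, 5 lower), beside 4.14% (2.70% higher, 1.45% lower). Depletion with Biocontrol changed 75 of 154 (45 higher, 30 lower), beside 42.0% of all genes (21.7% higher, 20.3% lower). The interaction of BioNICD1 with depletion passed for 32 (6 positive, 26 negative), beside 22.5% of all genes (9.17% positive, 13.3% negative). The 4 comparisons of the BioNICD1 experiment share libraries.

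Set against these backgrounds, the share of members called was 28.03% with GSI, 31.8% with BioNICD1 in control cells, 48.7% for depletion with Biocontrol and 16.1% in the edited lines. The median log2 fold change of the members was 0.05 with GSI against 0.00 over all genes, 0.10 with BioNICD1 in control cells against 0.01, 0.16 for depletion with Biocontrol against 0.02, and −0.31 for the interaction against −0.03. Only 109 members reached 5 CPM in all 16 groups. The other 50, among them Slc1a2, Slc26a11, Slc28a2, Slc30a4 and Slc41a2 with 1 group each, became members through the groups in which they were high. The counts of calls are therefore not support for a change of the whole set. Tests of such members in those groups are not separate support either. Of the 109, 10 were called in the edited lines, 35 with GSI, 37 with BioNICD1 in control cells and 46 for depletion with Biocontrol. Among the other tested members the calls were 15 of 46, 9 of 48, 12 of 45 and 29 of 45, in that order. Of all genes, 9.89%, 20.7%, 32.9% and 42.0% were called there.

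**Figure D1:**
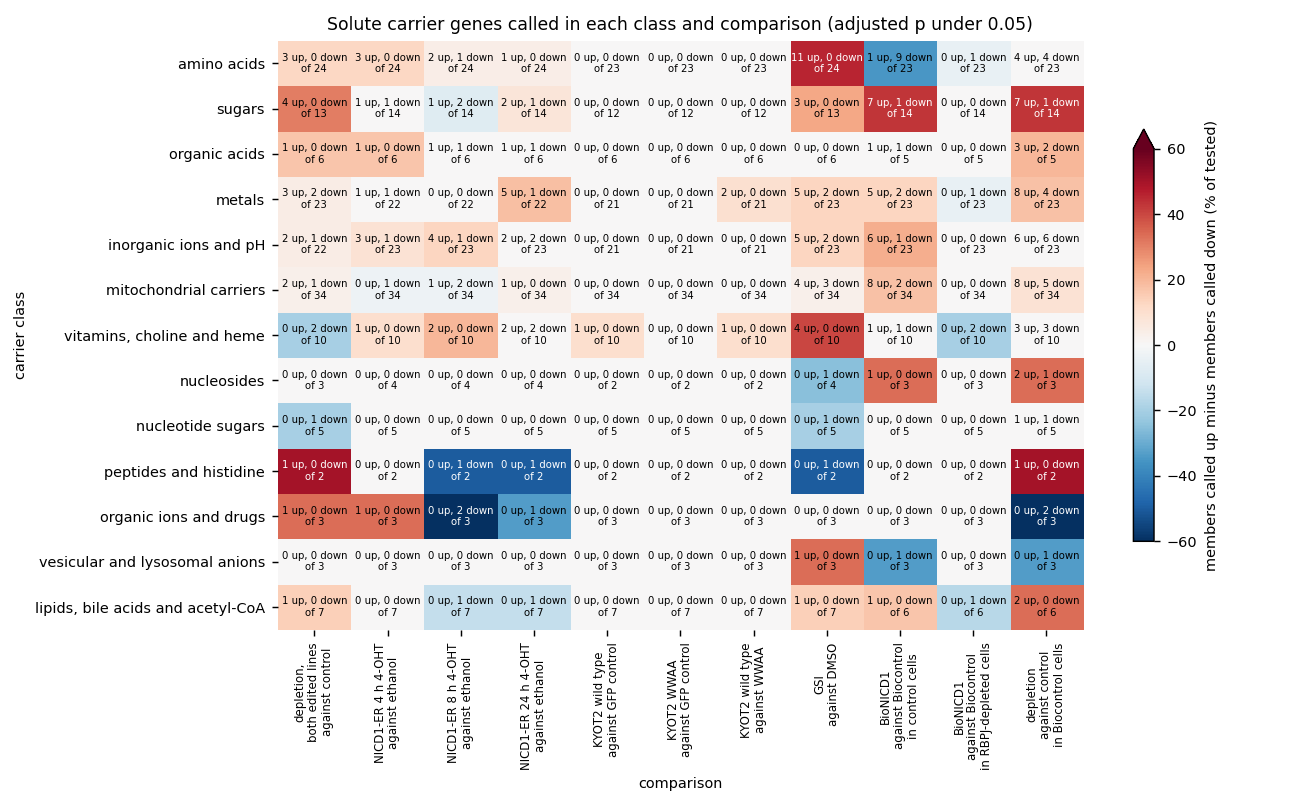
Members called higher and lower, of the members tested, for each carrier class (rows) in 11 comparisons (columns); the colour is the percent called higher minus the percent called lower. The amino acid class has 11 higher and 0 lower calls with GSI, and 1 higher and 9 lower calls with BioNICD1 in control cells.

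Counts moved with the tool and with single libraries. Where the share of all genes called in an alternative fit is not given, here or below, the count describes the members alone. That share was 36.8% in the edited lines with the replicate number as a block. With DESeq2 the count was 5 at 4 h, 9 at 8 h and 14 at 24 h of 4-OHT, 11 with GSI, where 5.93% of all genes were called, and 11 for BioNICD1 in depleted cells. In the edited lines the count was 10 without control replicate 1 and 47 without control replicate 2, 13 to 16 without any library of an edited line, and 74 with the replicate number as a block. At 4 h it was 9 without ethanol replicate 2, at 8 h it was 12 without ethanol replicate 3 and 13 without the summed replicates 1 and 2, and at 24 h it was 15 without 24 h 4-OHT replicate 3. For GSI it was 27 without GSI replicate 1, 20 without GSI replicate 2 and 29 without DMSO replicate 2. Counted over all comparisons, the interaction and line 2-12 against line 2-14 included, 118 members passed in at least 1 and 41 in none. In the same count 17 passed in 5 or more, and 55 had calls of both signs. A negative interaction is counted there as a lower call. It was the only such call of Slc44a2, Slc30a1 and Slc45a4, which were lower in no other comparison. Several of the comparisons share samples. Slc44a2 was called in 8 comparisons, Slc16a10 and Slc30a1 in 7, and Slc2a6, Slc46a3 and Slc9a9 in 6.

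The class of amino acid carriers (families 1, 3, 6, 7, 36, 38 and 43, 25 members) was higher with GSI in 11 of 24 tested members and lower in none, with a class median of 0.15 on the log2 scale. With BioNICD1 in control cells 9 of 23 fell and 1 rose, with a median of −0.34. These 2 experiments share no library. No count for a class or a gene list, here or below, was tested against the shares of all genes given above. For depletion with Biocontrol 4 were higher and 4 lower, and in the edited lines 3 were higher. With NICD1-ER 3 were higher at 4 h, 2 at 8 h and 1 at 24 h than in ethanol at 24 h, with 1 lower at 8 h.

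Slc7a11, the cystine/glutamate exchanger that supplies cysteine for glutathione, was at 58.5 and 57.7 CPM with GSI against 37.1 and 43.9 CPM with DMSO (log2 fold change 0.51, SE 0.081, adjusted p = 1.62e-05, edgeR). The GSI libraries lay above both DMSO libraries. In control cells Slc7a11 was at 9.08, 9.34 and 8.62 CPM with BioNICD1 against 17.9, 19.8 and 19 CPM with Biocontrol (log2 −1.07, SE 0.13, adjusted p = 6.7e-05, edgeR). All 3 BioNICD1 libraries lay below all 3 Biocontrol libraries. In depleted cells it was at 16.4, 22.1 and 18.6 CPM with BioNICD1 against 21.9, 25.7 and 20.7 CPM with Biocontrol, where the groups overlapped. With NICD1-ER, Slc7a11 was at 49.7 and 58.1 CPM in ethanol, 78.4 and 88.4 CPM at 4 h, 70.1 and 86.4 CPM at 8 h and 68.2 and 63.4 CPM at 24 h of 4-OHT. It was higher at 4 h (log2 0.60, SE 0.10, adjusted p = 0.00158, edgeR) and 8 h (log2 0.49, SE 0.10, adjusted p = 0.00515, edgeR) than in ethanol at 24 h. This is the reverse of the direction with BioNICD1, but the part of time in it was not tested. Slc7a11 at 8 h lost its call without ethanol replicate 2 (adjusted p = 0.066).

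Slc7a3, a cationic amino acid carrier, was at 97.2 and 90.5 CPM with GSI against 53.5 and 48.5 CPM with DMSO (log2 0.88, SE 0.068, adjusted p = 1.15e-11, edgeR), and at 8.14, 11.7 and 10.3 CPM with BioNICD1 against 23.9, 19.9 and 24.9 CPM with Biocontrol in control cells (log2 −1.19, SE 0.19, adjusted p = 0.000462, edgeR). Slc6a9, a glycine carrier, was at 68.4 and 71.3 CPM with GSI against 44.9 and 40.7 CPM with DMSO (log2 0.71, SE 0.074, adjusted p = 8.37e-09, edgeR), and at 7.62, 7.91 and 9 CPM with BioNICD1 against 21.3, 19.3 and 20.7 CPM with Biocontrol (log2 −1.32, SE 0.26, adjusted p = 0.00205, edgeR). Slc38a7, which exports glutamine from lysosomes, was at 43.3 and 42.4 CPM with GSI against 26.5 and 23.8 CPM with DMSO (log2 0.77, SE 0.094, adjusted p = 1.8e-07, edgeR), and at 6.89, 8.96 and 7.75 CPM with BioNICD1 against 13.7, 16.2 and 16.8 CPM with Biocontrol (log2 −0.98, SE 0.23, adjusted p = 0.00632, edgeR). In each of these pairs the groups did not overlap: the 3 carriers were higher with GSI and lower with BioNICD1.

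Slc3a2 and Slc7a5, the heavy and the light chain of the exchanger for large neutral amino acids, differed by less than 1 log2 unit in the comparisons that called them. Slc3a2 was at 178 ± 2.77 CPM with GSI against 161 ± 7.85 CPM with DMSO (log2 0.15, SE 0.048, adjusted p = 0.0271, edgeR) and at 258 ± 28.3 CPM with BioNICD1 against 376 ± 11.1 CPM with Biocontrol in control cells (log2 −0.55, SE 0.12, adjusted p = 0.00372, edgeR). Slc7a5 was at 245 ± 6.48 CPM with GSI against 223 ± 8.24 CPM with DMSO (log2 0.14, SE 0.045, adjusted p = 0.0284, edgeR) and at 118 ± 20.6 CPM in depleted cells against 82.2 ± 9.93 CPM in control cells with Biocontrol (log2 0.53, SE 0.19, adjusted p = 0.0385, edgeR). Slc1a5, the neutral amino acid carrier that takes up glutamine, was at 204 ± 4.41 CPM with GSI against 181 ± 8.93 CPM with DMSO (log2 0.18, SE 0.047, adjusted p = 0.00584, edgeR). These small differences depended on single samples. Slc3a2 with GSI lost its call with DESeq2 (adjusted p = 0.491), without GSI replicate 1 (0.247), without GSI replicate 2 (0.129) and without DMSO replicate 2 (0.326). Slc7a5 with GSI lost its call with DESeq2 (adjusted p = 0.415), without GSI replicate 1 (0.319), without GSI replicate 2 (0.0927) and without DMSO replicate 2 (0.203). Slc7a5 for depletion lost its call without 1 of 4 of its 6 samples (adjusted p 0.0842 to 0.144), namely depleted Biocontrol replicate 1, depleted Biocontrol replicate 2, control Biocontrol replicate 1 and control Biocontrol replicate 2. Slc1a5 with GSI lost its call with DESeq2 (adjusted p = 0.257), without GSI replicate 1 (0.129) and without DMSO replicate 2 (0.117).

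Slc6a6, the taurine carrier, fell with BioNICD1 in control cells (109 ± 6.49 CPM against 133 ± 1.95 CPM with Biocontrol, log2 −0.30, SE 0.074, adjusted p = 0.00864, edgeR) and in depleted cells with Biocontrol (90.9 ± 3.61 CPM against the same 133 ± 1.95 CPM, log2 −0.55, SE 0.074, adjusted p = 8.57e-05, edgeR). Slc7a6, a light chain for cationic amino acids, was at 113 ± 6.66 CPM in the 4 edited libraries against 78.4 ± 11.3 CPM in the control line (log2 0.52, SE 0.12, adjusted p = 0.0476, edgeR). It had an adjusted p of 0.00201 there with the replicate number as a block (edgeR). In the BioNICD1 experiment it was at 24.5 ± 5.48 CPM in depleted against 16 ± 0.862 CPM in control cells (log2 0.62, SE 0.21, adjusted p = 0.0324, edgeR). Its gene overlaps Slc7a6os and the counting strand is not stated, so reads of the 2 may not be told apart. Slc7a6 in the edited lines lost its call without 1 of 5 of its 6 samples (adjusted p 0.109 to 0.157), namely line 2-12 replicate 1, line 2-12 replicate 2, line 2-14 replicate 1, line 2-14 replicate 2 and control line replicate 1. Slc7a6 with Biocontrol lost its call without 1 of 5 of its 6 samples (adjusted p 0.0561 to 0.113), namely depleted Biocontrol replicate 1, depleted Biocontrol replicate 2, control Biocontrol replicate 1, control Biocontrol replicate 2 and control Biocontrol replicate 3. Slc7a7, a further light chain for cationic amino acids, was at 3.02 and 3.9 CPM at 8 h of 4-OHT against 6.47 and 7.47 CPM in ethanol (log2 −1.07, SE 0.25, adjusted p = 0.00962, edgeR). Slc7a7 lost its call with DESeq2 (adjusted p = 0.213), without the summed 8 h replicates 1 and 2 (0.176) and without ethanol replicate 3 (0.117).

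Slc6a13, a GABA carrier, was the only member that differed between the edited lines (0.484% of all genes called, 0.303% higher and 0.182% lower in line 2-12). It was at 0.243 and 0.342 CPM in line 2-12, against 9.32 and 8.99 CPM in line 2-14 (log2 −4.81, adjusted p = 0.0195, edgeR). With 3 counts in line 2-12 and 93 in line 2-14, the ratio of line 2-14 over line 2-12 was 30.3 with an exact 95% counting interval of 10.1 to 149.7. The control line held 1.35 and 2.69 CPM. Slc6a13 lost its call without any 1 of its 4 samples (adjusted p 0.108 to 0.208). With the replicate number as a block 7 members differed between the lines, Slc6a13 among them (adjusted p = 0.000908, edgeR). Slc6a13 also fell in depleted cells with Biocontrol, to 0.791, 0.916 and 0.602 CPM against 2.53, 2.07 and 2.35 CPM in control cells (log2 −1.55, SE 0.33, adjusted p = 0.00277, edgeR).

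**Figure D2:**
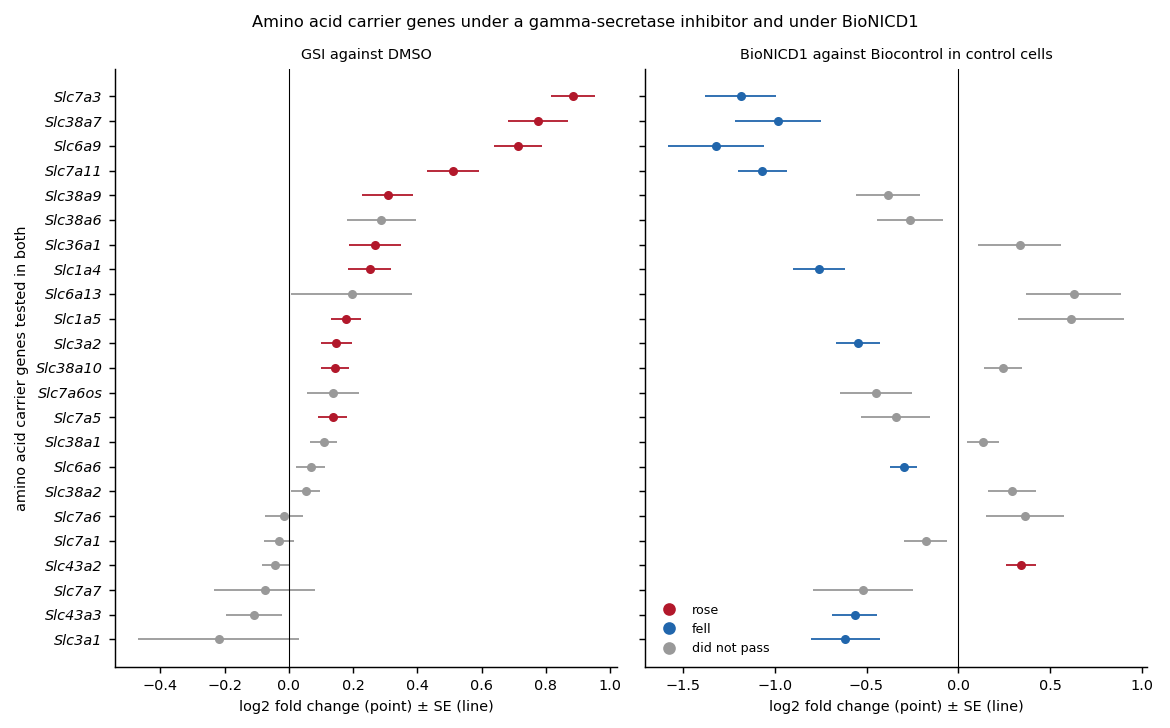
Log2 fold change of the amino acid class with GSI against DMSO (left) and with BioNICD1 against Biocontrol in control cells (right), 1 point per member with a line of 1 SE to each side; red points rose, blue points fell and grey points did not pass the edgeR test. Slc7a3, Slc38a7, Slc6a9 and Slc7a11 lie highest on the left and are all below 0 on the right.

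A list of 12 genes of the amino acid response, the programme by which ATF4 induces amino acid synthesis and uptake, was measured beside the carriers. With GSI 7 rose and none fell, among them Nupr1 (log2 1.25, SE 0.11, adjusted p = 2e-10), Trib3 (log2 0.73, SE 0.049, adjusted p = 7.59e-13), Asns, the asparagine synthetase (log2 0.23, SE 0.048, adjusted p = 0.00062), and Atf4 itself (log2 0.20, SE 0.049, adjusted p = 0.00262, all edgeR). With BioNICD1 in control cells 5 fell and none rose: Ddit3 (log2 −2.40), Trib3 (−1.65), Nupr1 (−1.36), Atf4 (−0.79) and Asns (−0.46). With NICD1-ER 2 were higher and 3 lower at 4 h and at 8 h, and 1 was higher at 24 h, all against ethanol at 24 h. Depletion with Biocontrol raised 3 and lowered 5, Atf4 included (−1.11). The plot of the amino acid carriers and these counts describe the same libraries, and whether the list bears on the carriers was not tested.

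The sugar carrier class (families 2, 5, 37, 45 and 50, 14 members) rose in 7 of 14 and fell in 1 with BioNICD1 in control cells, rose in 7 and fell in 1 for depletion with Biocontrol, and rose in 4 of 13 in the edited lines. The class follows the family number: Slc2a9 is known for urate, Slc5a6 for biotin and pantothenate, and the substrate of Slc45a4 is placed here by its family alone. All 5 members of family 2 (Slc2a2, Slc2a6, Slc2a8, Slc2a9 and Slc2a4rg-ps, which shares only the name) were higher in depleted than in control cells with Biocontrol. Of all genes, 21.7% were higher there. Slc2a1 and Slc2a3 of this family were left out by the rule. In control cells with Biocontrol, Slc2a8 and Slc2a4rg-ps were low, at group means of 2.02 and 2.22 CPM scaled to the library total.

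Slc45a4 had the largest fold change of any member. It became a member only through the 4-OHT groups and control cells with BioNICD1, in which it was high. Its tests there are not separate support for a rise. With NICD1-ER it was at 0.693 and 0.766 CPM in ethanol, 11.9 and 11.1 CPM at 4 h, 28.4 and 28.6 CPM at 8 h and 116 and 104 CPM at 24 h of 4-OHT. Each later group lay above the earlier one (log2 against ethanol 3.95, 5.24 and 7.19, SE 0.32, 0.25 and 0.19). In control cells it was at 29.3, 35.1 and 31.6 CPM with BioNICD1 against 0, 0.115 and 0 CPM with Biocontrol. The 975 counts against 1 gave a ratio of 792 with an exact 95% counting interval of 142 to 31296. In depleted cells it stayed near 0, at 0.119, 0 and 0.113 CPM with BioNICD1 against 0, 0.0916 and 0 CPM with Biocontrol, and it was at most 0.413 CPM in the edited lines and their control, in the KYOT2 groups and in the GSI experiment.

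**Figure D3:**
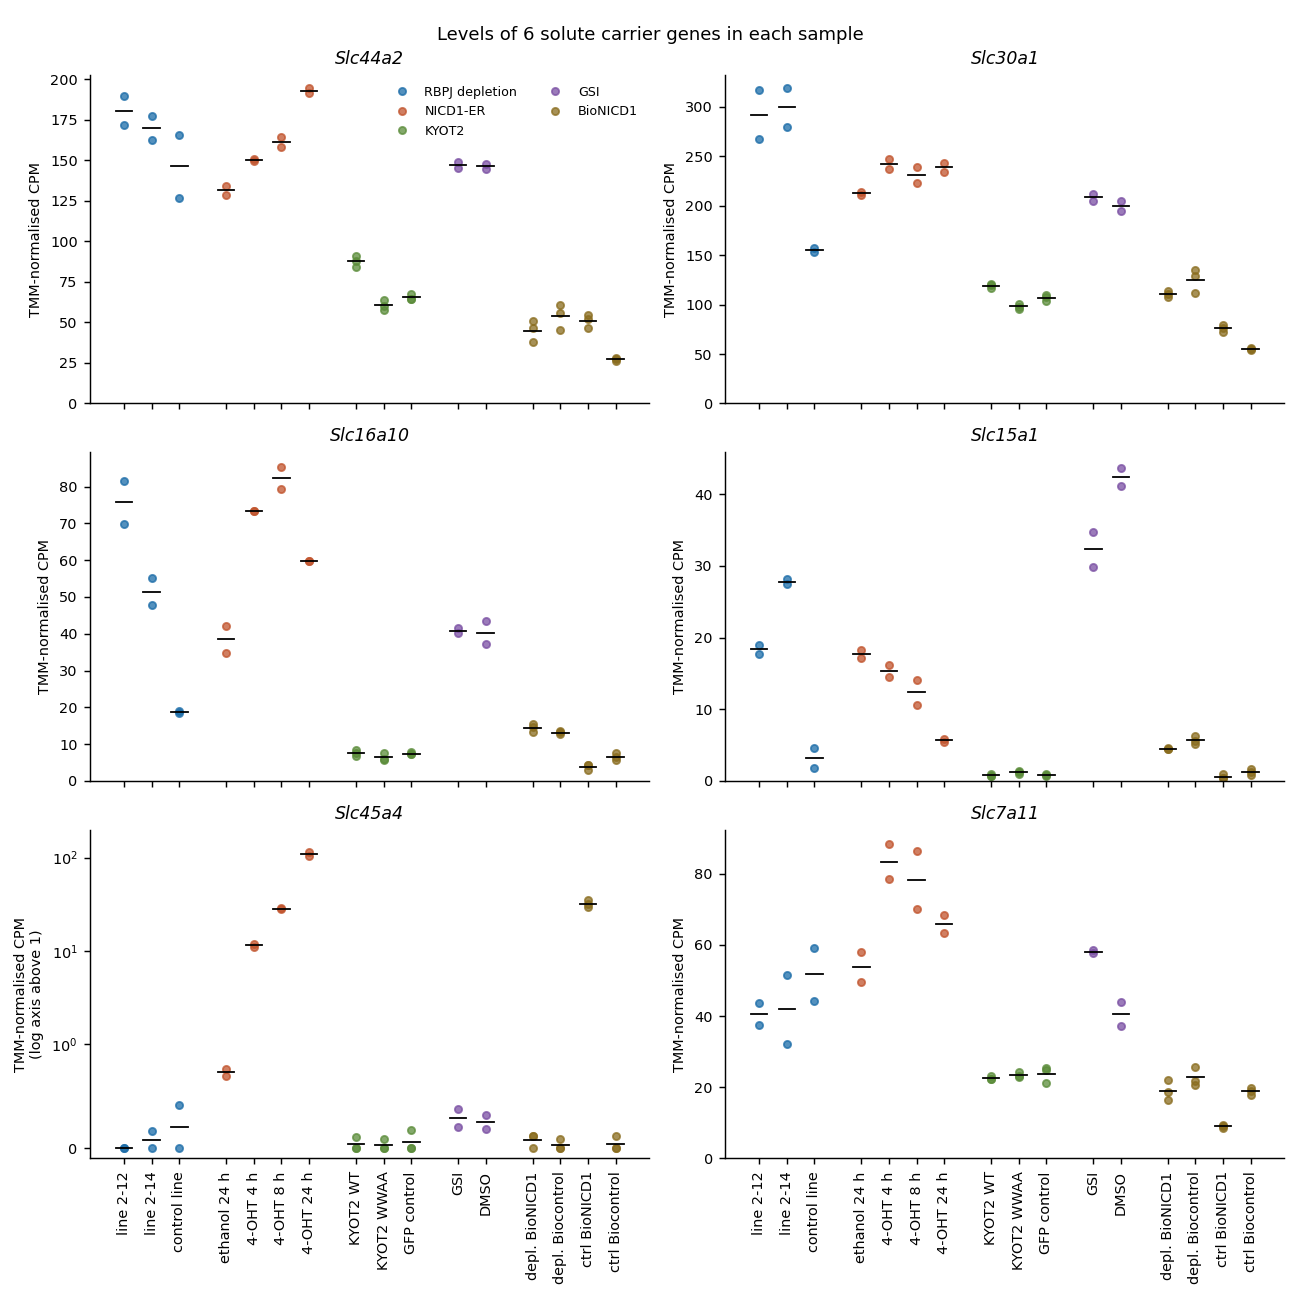
TMM-normalised level in CPM of 6 members in every sample of the 5 experiments, 1 point per sample with the group mean as a bar; the axis of Slc45a4 is logarithmic above 1 and linear below it. Slc45a4 runs between 0.693 and 116 CPM over the NICD1-ER samples and between 29.3 and 35.1 CPM in control cells with BioNICD1.

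Slc2a9 was at 19.4, 20.7 and 21.6 CPM with BioNICD1 against 4.69, 4.14 and 5.68 CPM with Biocontrol in control cells (log2 2.09, SE 0.22, adjusted p = 1.29e-05, edgeR), with no overlap. At 24 h of 4-OHT it was at 60.5 and 56.7 CPM against 38.1 and 42 CPM in ethanol (log2 0.55, SE 0.093, adjusted p = 0.000616, edgeR), also without overlap. Slc2a6, a hexose carrier of lysosomes, was at 25.2 and 25.3 CPM (line 2-12) and 27 and 34.6 CPM (line 2-14) in the edited lines, against 5.83 and 9.09 CPM in the control line (log2 1.84, SE 0.24, adjusted p = 0.00713, edgeR). All edited libraries lay above the control line. With GSI it was at 41.7 and 37.3 CPM against 22.6 and 23.3 CPM with DMSO (log2 0.78, SE 0.099, adjusted p = 4.1e-07, edgeR), and at 24 h of 4-OHT it was lower, at 10.2 and 12.4 CPM against 18.9 and 24.7 CPM in ethanol (log2 −0.97, SE 0.23, adjusted p = 0.00854, edgeR). Slc2a6 at 24 h lost its call without 24 h 4-OHT replicate 2 (adjusted p = 0.116) and without ethanol replicate 3 (0.121).

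Slc37a1 and Slc37a2 belong to the glucose-6-phosphate carriers of the endoplasmic reticulum. Slc37a1 was at 7.16 ± 2.15 CPM in the edited lines against 2.38 ± 0.443 CPM in the control line (log2 1.58, SE 0.33, adjusted p = 0.034, edgeR), and at 3.97, 4.76 and 3.68 CPM with BioNICD1 against 1.52, 1.04 and 1.11 CPM with Biocontrol in control cells (log2 1.76, SE 0.39, adjusted p = 0.00442, edgeR). Its adjusted p in the edited lines was 0.00613 with the replicate number as a block (edgeR). Slc37a1 in the edited lines lost its call with DESeq2 (adjusted p = 0.0747) and without any 1 of its 6 samples (0.0876 to 0.114). Slc37a2 was at 32.6 and 45.6 CPM in ethanol, 26.8 and 23.4 CPM at 4 h and 24.5 and 27.7 CPM at 8 h of 4-OHT, lower at both times (log2 −0.63 and −0.62, adjusted p = 0.00942 and 0.00614, edgeR). Slc37a2 at 4 h lost its call without ethanol replicate 3 (adjusted p = 0.237). Slc37a2 at 8 h lost its call without the summed 8 h replicates 1 and 2 (adjusted p = 0.0914) and without ethanol replicate 3 (0.202). Slc5a6, the carrier of biotin and pantothenate, was at 25.3 and 27.6 CPM with GSI against 16.2 and 19.1 CPM with DMSO (log2 0.58, SE 0.12, adjusted p = 0.000555, edgeR). Slc5a6 lost its call with DESeq2 (adjusted p = 0.114).

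Among the metal carriers (families 11, 30, 31, 39 and 41, 23 members), 8 rose and 4 fell for depletion with Biocontrol, 5 rose and 2 fell with BioNICD1 in control cells and with GSI, and 5 rose and 1 fell at 24 h of 4-OHT. Family 30 moves zinc out of the cytosol and family 39 moves zinc into it. Slc30a1, which exports zinc across the plasma membrane, was at 316 and 267 CPM (line 2-12) and 319 and 279.5 CPM (line 2-14) in the edited lines, against 157 and 154 CPM in the control line (log2 0.93, SE 0.12, adjusted p = 0.00702, edgeR). With Biocontrol it was at 128, 134 and 112 CPM in depleted against 56.1, 55.1 and 53.6 CPM in control cells (log2 1.19, SE 0.085, adjusted p = 5.46e-07, edgeR). The depleted libraries lay above all control libraries in both experiments. BioNICD1 raised it in control cells, to 72.2, 76.1 and 79.4 CPM (log2 0.47, SE 0.085, adjusted p = 0.00113, edgeR). KYOT2 wild type held 120.4, 120.2 and 117 CPM against 101, 96 and 97.4 CPM with WWAA (log2 0.28, SE 0.047, adjusted p = 0.00683, edgeR). NICD1-ER gave 211 and 214 CPM in ethanol, 237 and 247 CPM at 4 h (log2 0.19, SE 0.049, adjusted p = 0.0353, edgeR) and 234 and 243 CPM at 24 h (log2 0.17, SE 0.052, adjusted p = 0.0487, edgeR). The NICD1-ER and KYOT2 differences were small. Slc30a1 between KYOT2 wild type and WWAA lost its call without KYOT2 wild-type replicate 2 (adjusted p = 0.0524). Slc30a1 at 4 h lost its call with DESeq2 (adjusted p = 0.423), without 4 h replicate 3 (0.0907), without ethanol replicate 2 (0.141) and without ethanol replicate 3 (0.109). Slc30a1 at 24 h lost its call with RLE size factors (adjusted p = 0.0579), with DESeq2 (0.409) and without any 1 of its 4 samples (0.123 to 0.327).

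Slc30a4, which loads vesicles with zinc, moved the other way. It was at 0 and 0.512 CPM (line 2-12) and 0.245 and 0 CPM (line 2-14) in the edited lines, against 11.2 and 11.4 CPM in the control line (log2 −5.81, SE 0.64, adjusted p = 0.00375, edgeR). The 4 edited libraries together held 4 counts and the control libraries 80. Slc30a4 became a member through the control line alone, so its test there is not separate support for a fall. With Biocontrol it was at 0.0989, 0 and 0 CPM in depleted against 3.67, 4.72 and 4.45 CPM in control cells, 1 count against 106, so that control cells exceeded depleted cells by a ratio of 126 (exact 95% counting interval 22.1 to 5022). BioNICD1 lowered it in control cells, to 1.77, 1.91 and 2.03 CPM (log2 −1.16, SE 0.23, adjusted p = 0.00336, edgeR), and no count was found in depleted cells with BioNICD1. Slc30a2, another vesicular zinc carrier, was at 21.4 and 16.7 CPM (line 2-12) and 57.9 and 42 CPM (line 2-14) in the edited lines, against 0.449 and 3.1 CPM in the control line (log2 3.80, SE 0.45, adjusted p = 0.00483, edgeR), without overlap.

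Slc39a13, a zinc importer of the secretory pathway, was at 59 and 57.3 CPM at 24 h of 4-OHT against 19.6 and 20.1 CPM in ethanol (log2 1.55, SE 0.10, adjusted p = 1.32e-08, edgeR) and at 9.81, 13 and 12.4 CPM with BioNICD1 against 5.32, 5.87 and 6.42 CPM with Biocontrol in control cells (log2 0.997, SE 0.17, adjusted p = 0.000809, edgeR). Neither pair of groups overlapped. Slc39a10, a zinc importer of the plasma membrane, was at 114 and 118 CPM in ethanol, 85.8 and 82.1 CPM at 4 h (log2 −0.46, SE 0.057, adjusted p = 7.16e-05, edgeR) and 136 and 128 CPM at 24 h (log2 0.18, SE 0.056, adjusted p = 0.0472, edgeR), below ethanol at the first time and above it at the last. It was higher with GSI (183 ± 7.23 CPM against 160.4 ± 3.87 CPM with DMSO, log2 0.18, SE 0.047, adjusted p = 0.00478, edgeR). It was lower with BioNICD1 in control cells (66.7 ± 5.17 CPM, log2 −0.41, SE 0.11, adjusted p = 0.0141, edgeR) and in depleted cells with Biocontrol (69.6 ± 6.06 CPM, log2 −0.35, SE 0.11, adjusted p = 0.0247, edgeR), both against 88.5 ± 6.15 CPM in control cells with Biocontrol. Most of these calls were not held throughout. Slc39a10 at 24 h lost its call with RLE size factors (adjusted p = 0.0508), with DESeq2 (0.561), with no filter on low counts (0.0564) and without any 1 of its 4 samples (0.088 to 0.396). Slc39a10 with GSI lost its call with DESeq2 (adjusted p = 0.248) and without GSI replicate 1 (0.184). Slc39a10 with BioNICD1 lost its call without control BioNICD1 replicate 2 (adjusted p = 0.064) and without control Biocontrol replicate 1 (0.0642). Slc39a10 for depletion lost its call with no filter on low counts (adjusted p = 0.0548), without depleted Biocontrol replicate 1 (0.0718), without depleted Biocontrol replicate 2 (0.0949) and without control Biocontrol replicate 1 (0.124).

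Slc39a6, the partner of Slc39a10 in zinc import, was at 230.1 ± 10.3 CPM in depleted against 173 ± 1.39 CPM in control cells with Biocontrol (log2 0.41, SE 0.083, adjusted p = 0.00181, edgeR), and at 218 ± 4.4 CPM with GSI against 199 ± 0.946 CPM with DMSO (log2 0.13, SE 0.044, adjusted p = 0.0348, edgeR). Slc39a6 with GSI lost its call with DESeq2 (adjusted p = 0.489), with no filter on low counts (0.0545) and without any 1 of its 4 samples (0.0579 to 0.33). Slc41a2, a magnesium carrier, was at 3.66, 4.21 and 5.42 CPM in depleted against 0.38, 0.345 and 0.618 CPM in control cells with Biocontrol (log2 3.26, SE 0.29, adjusted p = 2.76e-06, edgeR), without overlap. Slc41a1, also a magnesium carrier, was at 74.5 ± 5.12 CPM with KYOT2 wild type against 62.3 ± 2.85 CPM with WWAA (log2 0.26, SE 0.059, adjusted p = 0.0435, edgeR). Slc41a1 lost its call with DESeq2 (adjusted p = 0.0616) and without 1 of 5 of its 6 samples (0.0512 to 0.207), namely KYOT2 wild-type replicate 1, KYOT2 wild-type replicate 2, WWAA replicate 1, WWAA replicate 2 and WWAA replicate 3. Slc31a1, the copper importer, was at 115 ± 0.648 CPM with GSI against 135 ± 3.58 CPM with DMSO (log2 −0.23, SE 0.05, adjusted p = 0.000787, edgeR). Slc31a1 lost its call with DESeq2 (adjusted p = 0.177).

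Of 10 other genes of metal handling, 2 rose in the edited lines and the same 2 in depleted cells with Biocontrol. They were Mtf1, the metal-responsive transcription factor (log2 0.85 and 1.03, adjusted p = 0.00831 and 4.57e-07, edgeR), and Steap3, a metal reductase (log2 1.82 and 1.38, adjusted p = 0.0119 and 0.00147). Fth1 and Hmox1, which store iron and break down heme, fell with Biocontrol (log2 −0.63 and −1.56). The list had 3 higher and 2 lower with GSI, and 2 higher and 3 lower with BioNICD1 in control cells. Of all genes, 6.21% were higher in the edited lines and 21.7% in depleted cells with Biocontrol.

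The carriers of inorganic ions and protons (families 4, 9, 12, 20, 24 and 26, 23 members) had 6 higher and 6 lower for depletion with Biocontrol, 6 higher and 1 lower with BioNICD1 in control cells, and 5 higher and 2 lower with GSI. Slc12a7, a potassium-chloride cotransporter, was at 27.7 and 30.8 CPM in ethanol, 39.96 and 37.3 CPM at 4 h, 46.1 and 48.9 CPM at 8 h and 59.4 and 57.3 CPM at 24 h of 4-OHT. Every 4-OHT sample lay above both ethanol samples, and the log2 fold change was 0.41, 0.68 and 0.99 at the 3 times (adjusted p = 0.0166, 9.94e-05 and 1.14e-06, edgeR). Slc12a7 at 4 h lost its call with DESeq2 (adjusted p = 0.297), without the summed 4 h replicates 1 and 2 (0.187) and without ethanol replicate 2 (0.131). Slc9a9, a sodium/proton exchanger of endosomes, was at 99.8 and 104 CPM in ethanol, 84.7 and 81.9 CPM at 4 h, 63.1 and 64.1 CPM at 8 h and 58.2 and 57.1 CPM at 24 h. It was lower at each time, with log2 fold changes of −0.29, −0.69 and −0.82 (adjusted p = 0.00415, 6.19e-07 and 1.16e-07, edgeR). With BioNICD1 in control cells it was higher, at 26, 28 and 30.3 CPM against 13.2, 11.5 and 13.1 CPM with Biocontrol (log2 1.16, SE 0.16, adjusted p = 0.000165, edgeR). Slc9a9 at 4 h lost its call with DESeq2 (adjusted p = 0.242) and without ethanol replicate 3 (0.0593).

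Slc9a5, another sodium/proton exchanger, was at 39.5 and 39.4 CPM with GSI against 62.3 and 66.7 CPM with DMSO (log2 −0.71, SE 0.076, adjusted p = 1.45e-08, edgeR). In depleted cells it was at 16.9, 19.1 and 20.1 CPM against 3.04, 3.57 and 4.32 CPM in control cells with Biocontrol (log2 2.35, SE 0.19, adjusted p = 1.11e-06, edgeR). GSI samples lay below DMSO and depleted samples above control. Slc9a8, the exchanger of the Golgi, was at 105 ± 0.917 CPM at 4 h of 4-OHT against 81.7 ± 2.55 CPM in ethanol (log2 0.36, SE 0.07, adjusted p = 0.00466, edgeR). Slc9a8 lost its call with DESeq2 (adjusted p = 0.0779). Slc9a3r1, the scaffold protein NHERF1 and no carrier itself, was at 264 ± 21 CPM with BioNICD1 against 139 ± 4.87 CPM with Biocontrol in control cells (log2 0.93, SE 0.098, adjusted p = 1.36e-05, edgeR).

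Family 26 carries sulfate and other anions. The sulfate carrier Slc26a11 was at 7.98 and 7.28 CPM with GSI against 2.24 and 2.07 CPM with DMSO (log2 1.82, SE 0.28, adjusted p = 8.29e-06, edgeR), and at 0.396, 0.366 and 0.12 CPM in depleted against 2.28, 1.84 and 1.36 CPM in control cells with Biocontrol (log2 −2.52, SE 0.45, adjusted p = 0.000705, edgeR). Neither pair of groups overlapped, and the directions were opposite. Slc26a11 became a member through the GSI group alone, so its test with GSI is not separate support for a rise. Slc26a2, also a sulfate carrier, was at 42.4 ± 1.51 CPM in ethanol, 55.6 ± 1.64 CPM at 4 h (log2 0.38, SE 0.079, adjusted p = 0.00762, edgeR) and 52.9 ± 2.3 CPM at 8 h (log2 0.33, SE 0.079, adjusted p = 0.0137, edgeR). Slc26a2 at 4 h lost its call with DESeq2 (adjusted p = 0.207) and without ethanol replicate 2 (0.0615). Slc26a2 at 8 h lost its call with DESeq2 (adjusted p = 0.337), without the summed 8 h replicates 1 and 2 (0.194) and without ethanol replicate 2 (0.0839). Slc26a10 of the same family was at 1.7 and 0.512 CPM (line 2-12) and 0.491 and 1.31 CPM (line 2-14) in the edited lines, against 6.28 and 5.79 CPM in the control line (log2 −2.56, SE 0.53, adjusted p = 0.032, edgeR). Its adjusted p was 0.00335 with the replicate number as a block (edgeR). Slc26a10 lost its call without 1 of 5 of its 6 samples (adjusted p 0.0713 to 0.142), namely line 2-12 replicate 2, line 2-14 replicate 1, line 2-14 replicate 2, control line replicate 1 and control line replicate 2.

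Slc20a1 and Slc20a2 import phosphate. Slc20a2 was at 16.4, 19 and 14.7 CPM in depleted against 6.08, 3.45 and 4.69 CPM in control cells with Biocontrol (log2 1.82, SE 0.20, adjusted p = 1.62e-05, edgeR), and BioNICD1 brought it to 6.58, 9.15 and 7.65 CPM in control cells (log2 0.72, SE 0.21, adjusted p = 0.0188, edgeR). Both groups lay above control cells with Biocontrol. Slc20a2 with BioNICD1 lost its call without control BioNICD1 replicate 2 (adjusted p = 0.0834), without control Biocontrol replicate 2 (0.0906) and without control Biocontrol replicate 3 (0.0551). Slc20a1 was at 204 ± 4.61 CPM with GSI against 179 ± 0.256 CPM with DMSO (log2 0.19, SE 0.045, adjusted p = 0.00275, edgeR). Slc20a1 lost its call with DESeq2 (adjusted p = 0.192) and without GSI replicate 2 (0.116). Of the cation-chloride cotransporters, Slc12a4 rose in depleted cells with Biocontrol (15.2, 12 and 7.83 CPM against 3.8, 2.65 and 2.84 CPM in control cells, log2 1.93, SE 0.27, adjusted p = 0.000118, edgeR) while Slc12a5 fell (0, 0.366 and 0.241 CPM against 2.15, 1.15 and 1.11 CPM, log2 −2.76, SE 0.78, adjusted p = 0.0134, edgeR). Slc12a5 lost its call without control Biocontrol replicate 1 (adjusted p = 0.0606). Slc12a2, which carries sodium, potassium and chloride inward, was at 89.99 ± 0.824 CPM with GSI against 74.4 ± 10.1 CPM with DMSO (log2 0.26, SE 0.069, adjusted p = 0.0053, edgeR), and at 67.3 ± 5.8 CPM at 24 h of 4-OHT against 84.9 ± 7.62 CPM in ethanol (log2 −0.34, SE 0.092, adjusted p = 0.0253, edgeR). Slc12a2 with GSI lost its call with DESeq2 (adjusted p = 0.255) and without DMSO replicate 1 (0.206). Slc12a2 at 24 h lost its call with DESeq2 (adjusted p = 0.131), without 24 h 4-OHT replicate 3 (0.259) and without ethanol replicate 3 (0.24). Slc4a7, a sodium bicarbonate cotransporter, was at 56.4 ± 3.43 CPM in depleted against 42.6 ± 2 CPM in control cells with Biocontrol (log2 0.40, SE 0.10, adjusted p = 0.00825, edgeR). Slc24a5, a cation exchanger known from pigment cells, was at 16.8 ± 0.302 CPM with GSI against 23.4 ± 4.6 CPM with DMSO (log2 −0.49, SE 0.13, adjusted p = 0.00718, edgeR). Slc24a5 lost its call with DESeq2 (adjusted p = 0.337) and without DMSO replicate 2 (0.402).

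Among the carriers of vitamins, choline and heme (families 19, 23, 44, 46, 48 and 52, 10 members), 4 rose and none fell with GSI, and 3 rose and 3 fell for depletion with Biocontrol. Slc44a2, a choline transporter-like protein, was at 129 and 134 CPM in ethanol, 151 and 149.8 CPM at 4 h, 159 and 165 CPM at 8 h and 191 and 195 CPM at 24 h of 4-OHT. All 4-OHT samples lay above both ethanol samples (log2 0.19, 0.29 and 0.55, adjusted p = 0.0307, 0.000863 and 7.11e-07, edgeR). Slc44a2 at 4 h lost its call with DESeq2 (adjusted p = 0.568) and without any 1 of its 4 samples (0.0518 to 0.17). With KYOT2 wild type it was at 91.1, 84 and 88.1 CPM against 60.3, 58 and 63.8 CPM with WWAA and 64.3, 67.8 and 64.6 CPM with GFP. The wild-type libraries lay above all others, with a log2 fold change of 0.53 against WWAA (adjusted p = 0.000117, edgeR) and 0.42 against GFP (adjusted p = 0.000998). It was the only member called in both. In control cells it was at 46.9, 51.8 and 54.6 CPM with BioNICD1 against 26, 27.5 and 28 CPM with Biocontrol (log2 0.91, SE 0.13, adjusted p = 0.000178, edgeR). With Biocontrol, depleted cells held 56, 60.9 and 45.6 CPM, above the control cells (log2 0.997, SE 0.13, adjusted p = 6.85e-05, edgeR).

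Slc46a1, the proton-coupled folate carrier, was at 1.94 and 3.76 CPM (line 2-12) and 4.91 and 4.74 CPM (line 2-14) in the edited lines, against 14.4 and 27.3 CPM in the control line (log2 −2.50, SE 0.34, adjusted p = 0.0087, edgeR), and at 0.396, 1.01 and 0.241 CPM in depleted against 3.04, 3.22 and 3.33 CPM in control cells with Biocontrol (log2 −2.45, SE 0.42, adjusted p = 0.0006, edgeR). Depleted samples lay below control samples in both experiments. At 24 h of 4-OHT it was at 5.84 and 5.48 CPM against 9.7 and 9 CPM in ethanol (log2 −0.72, SE 0.21, adjusted p = 0.0367, edgeR). Slc46a1 at 24 h lost its call with DESeq2 (adjusted p = 0.357) and without any 1 of its 4 samples (0.0975 to 0.181). Slc46a3, a carrier of the lysosomal membrane, was at 37.3 ± 4.96 CPM in the edited lines against 60.5 ± 3.98 CPM in the control line (log2 −0.70, SE 0.13, adjusted p = 0.0249, edgeR), and at 10.1 ± 1.81 CPM with BioNICD1 against 17 ± 3.57 CPM with Biocontrol in depleted cells (log2 −0.75, SE 0.16, adjusted p = 0.0223, edgeR). Its adjusted p in the edited lines was 0.00147 with the replicate number as a block (edgeR). Slc46a3 in the edited lines lost its call without 1 of 5 of its 6 samples (adjusted p 0.0528 to 0.0978), namely line 2-12 replicate 1, line 2-12 replicate 2, line 2-14 replicate 1, line 2-14 replicate 2 and control line replicate 1. Slc19a1, the reduced folate carrier, was at 19.98, 26.3 and 12.3 CPM in depleted against 9.25, 8.86 and 10.004 CPM in control cells with Biocontrol (log2 1.07, SE 0.30, adjusted p = 0.0139, edgeR). Slc19a1 lost its call without depleted Biocontrol replicate 2 (adjusted p = 0.0686) and without control Biocontrol replicate 2 (0.0512). Slc44a1, a choline carrier, was at 9.99 and 11.8 CPM at 24 h of 4-OHT against 15.7 and 17.2 CPM in ethanol (log2 −0.61, SE 0.17, adjusted p = 0.0266, edgeR). Slc44a1 lost its call with DESeq2 (adjusted p = 0.26) and without any 1 of its 4 samples (0.0514 to 0.232).

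The mitochondrial carriers (family 25, 34 members) had 8 higher and 5 lower for depletion with Biocontrol, 8 higher and 2 lower with BioNICD1 in control cells, 4 higher and 3 lower with GSI, and 2 higher and 1 lower in the edited lines. Of all genes, 21.7% were higher and 20.3% lower for depletion with Biocontrol. The shares were 18.7% and 14.2% with BioNICD1 in control cells, 9.16% and 11.6% with GSI, and 6.21% and 3.68% in the edited lines. Slc25a23, which exchanges ATP-Mg for phosphate, was at 12.6 and 6.83 CPM (line 2-12) and 10.3 and 9.97 CPM (line 2-14) in the edited lines, against 47.1 and 61.2 CPM in the control line (log2 −2.47, SE 0.24, adjusted p = 0.00228, edgeR). The edited libraries all lay below the control line. Slc25a33, a pyrimidine nucleotide carrier, was at 11.5, 12.3 and 10.3 CPM with BioNICD1 against 21, 23.8 and 21.2 CPM with Biocontrol in control cells (log2 −0.96, SE 0.18, adjusted p = 0.00162, edgeR). Slc25a32, which carries folate and FAD, was at 28.3, 33.6 and 34.1 CPM with BioNICD1 against 18, 20.9 and 18.5 CPM with Biocontrol in control cells (log2 0.74, SE 0.11, adjusted p = 0.000179, edgeR), and at 28, 26 and 23.8 CPM in depleted cells with Biocontrol (log2 0.44, SE 0.11, adjusted p = 0.00575, edgeR). Neither pair of groups overlapped.

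Slc25a10, the dicarboxylate carrier, was at 46.1 and 44.6 CPM with GSI against 66.9 and 61.6 CPM with DMSO (log2 −0.50, SE 0.075, adjusted p = 6.23e-06, edgeR), without overlap. Slc25a17, a carrier of peroxisomes, was at 66.9 ± 1.92 CPM with GSI against 79.4 ± 0.751 CPM with DMSO (log2 −0.25, SE 0.063, adjusted p = 0.00493, edgeR). Slc25a17 lost its call with DESeq2 (adjusted p = 0.345), without GSI replicate 2 (0.0974) and without DMSO replicate 2 (0.0587). Slc25a1, the citrate carrier, was at 98.2 ± 1.22 CPM at 4 h of 4-OHT against 124 ± 16.3 CPM in ethanol (log2 −0.32, SE 0.069, adjusted p = 0.00984, edgeR), and Slc25a30 was at 68.1 ± 1.69 CPM at 8 h against 54.8 ± 2.49 CPM in ethanol (log2 0.31, SE 0.068, adjusted p = 0.00644, edgeR). Slc25a1 lost its call with DESeq2 (adjusted p = 0.0946) and without ethanol replicate 2 (0.141). Slc25a30 lost its call with DESeq2 (adjusted p = 0.238) and without ethanol replicate 3 (0.101). Slc25a5, an exchanger of ADP and ATP, was at 111, 139 and 138 CPM with BioNICD1 against 71.8, 75.7 and 81.5 CPM with Biocontrol in control cells (log2 0.76, SE 0.23, adjusted p = 0.0256, edgeR); it has near-identical pseudogene copies, so its counts are uncertain. Slc25a5 lost its call without 1 of 5 of its 6 samples (adjusted p 0.0546 to 0.0842), namely control BioNICD1 replicate 2, control BioNICD1 replicate 3, control Biocontrol replicate 1, control Biocontrol replicate 2 and control Biocontrol replicate 3.

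The organic acid family 16 holds carriers of lactate, but also of other substrates. Slc16a10, which carries aromatic amino acids, was at 81.6 and 69.9 CPM (line 2-12) and 55.2 and 47.7 CPM (line 2-14) in the edited lines, against 18.4 and 19 CPM in the control line (log2 1.73, SE 0.15, adjusted p = 0.00177, edgeR). With NICD1-ER it was at 34.9 and 42.1 CPM in ethanol, 73.3 and 73.4 CPM at 4 h, 79.3 and 85.3 CPM at 8 h and 59.7 and 59.9 CPM at 24 h of 4-OHT. It was higher at all 3 times (log2 0.92, 1.07 and 0.62, adjusted p = 2.13e-06, 1.43e-07 and 0.000167, edgeR), and highest at 8 h. With BioNICD1 in control cells it was lower, at 4.28, 2.86 and 4.45 CPM against 5.7, 7.71 and 6.42 CPM with Biocontrol (log2 −0.78, SE 0.18, adjusted p = 0.00623, edgeR), without overlap. Slc16a1, the lactate carrier MCT1, was at 350.2, 372 and 367 CPM in depleted against 649.9, 621 and 589.8 CPM in control cells with Biocontrol (log2 −0.77, SE 0.089, adjusted p = 2.57e-05, edgeR). The groups did not overlap, with every depleted library lower.

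Slc15a1, a carrier of short peptides, was at 18.9 and 17.8 CPM (line 2-12) and 27.5 and 28.1 CPM (line 2-14) in the edited lines, against 1.8 and 4.55 CPM in the control line (log2 2.66, SE 0.31, adjusted p = 0.0044, edgeR), and at 5.64, 5.22 and 6.26 CPM in depleted against 1.27, 1.61 and 0.865 CPM in control cells with Biocontrol (log2 2.17, SE 0.27, adjusted p = 4.67e-05, edgeR). Depleted samples lay above control samples in both experiments. With NICD1-ER it was at 17.1 and 18.2 CPM in ethanol, 10.6 and 14.1 CPM at 8 h (log2 −0.57, SE 0.16, adjusted p = 0.0288, edgeR) and 5.84 and 5.48 CPM at 24 h (log2 −1.64, SE 0.21, adjusted p = 2.84e-05, edgeR). It was also lower with GSI (32.3 ± 3.43 CPM against 42.4 ± 1.77 CPM with DMSO, log2 −0.40, SE 0.092, adjusted p = 0.00162, edgeR). Slc15a1 at 8 h lost its call with DESeq2 (adjusted p = 0.399), without the summed 8 h replicates 1 and 2 (0.389), without ethanol replicate 2 (0.0736) and without ethanol replicate 3 (0.171). Slc15a1 with GSI lost its call with DESeq2 (adjusted p = 0.22) and without GSI replicate 2 (0.114).

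Slc22a3, a carrier of organic cations, differed in direction between the 2 depletion experiments. It was at 33 and 42.9 CPM (line 2-12) and 16.4 and 17.3 CPM (line 2-14) in the edited lines, against 0.449 and 1.03 CPM in the control line (log2 4.87, SE 0.34, adjusted p = 0.000732, edgeR). With Biocontrol it was at 0.396, 0.0916 and 0.241 CPM in depleted against 2.03, 2.19 and 2.47 CPM in control cells (log2 −3.15, SE 0.55, adjusted p = 0.000601, edgeR), and at 24 h of 4-OHT it was at 16.4 and 17.7 CPM against 26.8 and 33.3 CPM in ethanol (log2 −0.83, SE 0.14, adjusted p = 0.000672, edgeR). Slc22a15, of the same family, was at 29 ± 0.497 CPM at 8 h against 38.9 ± 4.65 CPM in ethanol (log2 −0.43, SE 0.10, adjusted p = 0.0127, edgeR). Slc22a15 lost its call with DESeq2 (adjusted p = 0.176), without the summed 8 h replicates 1 and 2 (0.0676) and without ethanol replicate 3 (0.21). Slc29a1, the equilibrative nucleoside carrier, was at 33.4, 42.5 and 39.2 CPM with BioNICD1 (log2 0.91, SE 0.14, adjusted p = 0.000328, edgeR) and 35.7, 39 and 31.8 CPM in depleted cells (log2 0.80, SE 0.14, adjusted p = 0.000683, edgeR), both against 20.8, 18.2 and 22.5 CPM in control cells with Biocontrol, which lay below both. With GSI it was at 103 ± 0.224 CPM against 115 ± 1.15 CPM with DMSO (log2 −0.17, SE 0.052, adjusted p = 0.0229, edgeR). Slc29a1 with GSI lost its call with DESeq2 (adjusted p = 0.528) and without any 1 of its 4 samples (0.0851 to 0.147). Slc27a1, which takes up fatty acids, was at 37.5 and 40.3 CPM at 8 h against 55.2 and 61.9 CPM in ethanol (log2 −0.61, SE 0.087, adjusted p = 0.00016, edgeR).

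Slc35a2, which brings UDP-galactose into the Golgi, was at 59.1 ± 2.61 CPM (line 2-12) and 61.5 ± 1.19 CPM (line 2-14) in the edited lines, against 86.4 ± 5.94 CPM in the control line (log2 −0.52, SE 0.11, adjusted p = 0.0354, edgeR). Its adjusted p was 0.00313 with the replicate number as a block (edgeR). Slc35a2 lost its call without 1 of 5 of its 6 samples (adjusted p 0.0982 to 0.13), namely line 2-12 replicate 1, line 2-12 replicate 2, line 2-14 replicate 1, line 2-14 replicate 2 and control line replicate 1. Slc35a4 of the same family was at 107 ± 23 CPM in depleted against 66.3 ± 4.52 CPM in control cells with Biocontrol (log2 0.69, SE 0.25, adjusted p = 0.044, edgeR). Slc35a4 lost its call without 1 of 5 of its 6 samples (adjusted p 0.0753 to 0.134), namely depleted Biocontrol replicate 1, depleted Biocontrol replicate 2, control Biocontrol replicate 1, control Biocontrol replicate 2 and control Biocontrol replicate 3.

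The 2 depletion experiments share no library, and 152 members were tested in both. Their control cells carry the same label, Control_sgRbpj, and the edited line of the BioNICD1 experiment is not named. Both experiments may therefore compare the same lines, so a shared direction need not come from separately edited cells. The part of line differences unrelated to RBPJ in the shared calls was not tested. Of these, 17 passed in both, 8 in the edited lines only, 57 with Biocontrol only and 70 in neither. Of the 17, 11 were higher and 5 lower in depleted cells in both experiments, and Slc22a3 had opposite directions. The 16 with the same direction made up 64% of the calls in the edited lines and 21.6% of those with Biocontrol among members tested in both. Over all genes tested in both these shares were 58.4% and 14.2%, and 87.8% of the 728 genes called in both had the same direction, against 94.1% of the 17 members. With the replicate number as a block in the edited lines, where 36.8% of all genes were called, 41 members passed in both, 32 in the edited lines only, 33 with Biocontrol only and 46 in neither; 35 of the 41 had the same direction. The members higher in both included the zinc carriers Slc30a1 (log2 0.93 in the edited lines and 1.19 with Biocontrol) and Slc30a2 (3.80 and 1.19), the peptide carrier Slc15a1 (2.66 and 2.17), Slc2a6 (1.84 and 1.13), Slc2a9 (1.31 and 1.28), Slc9a5 (1.55 and 2.35) and Slc16a10 (1.73 and 0.99). Those lower in both were Slc30a4 (−5.81 and −6.50), Slc46a1 (−2.50 and −2.45), Slc25a23 (−2.47 and −1.50), Slc26a10 (−2.56 and −1.52) and Slc46a3 (−0.70 and −1.06). Levels were not compared between the experiments. The plot of both experiments shows these members at its upper right and lower left.

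**Figure D4:**
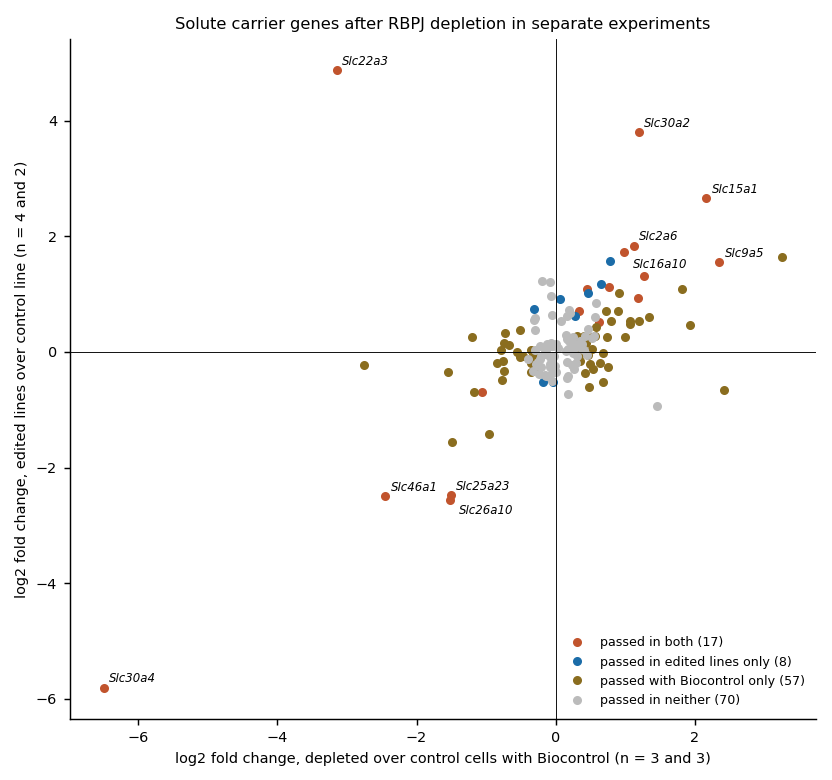
Log2 fold change of the 152 members tested in both experiments, for depleted over control cells with Biocontrol (horizontal) and for the edited lines over the control line (vertical), coloured by where they passed the edgeR test. Of the 17 members that passed in both, 16 lie in the upper right or lower left and Slc22a3 lies in the upper left.

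The interaction asks whether the log2 fold change with BioNICD1 differs between depleted and control cells. Notch1 counts, which include the transgene, were at 836 to 981 CPM in depleted cells with BioNICD1 and at 166 to 174 CPM in control cells with BioNICD1, and at 4.94 to 7.70 CPM in depleted against 0.507 to 1.11 CPM in control cells with Biocontrol; the part of this unequal level in the interaction was not tested. The 26 negative members (a smaller or more negative change in depleted cells) included 7 of 14 sugar carriers, 5 of 23 metal carriers and 5 of 23 ion carriers, and the 6 positive ones included 3 of the amino acid class, 1 of which (Slc43a3) is known for purine nucleobases instead. Slc2a9 had an interaction of −2.40 (SE 0.30, adjusted p = 0.000143, edgeR): in depleted cells it was at 6.07, 11.2 and 10.7 CPM with BioNICD1 against 13.4, 12 and 9.51 CPM with Biocontrol. Slc39a13 (log2 −1.57, SE 0.25, adjusted p = 0.000865, edgeR) was at 5.12, 5.81 and 5.53 CPM with BioNICD1 against 7.42, 10.1 and 6.86 CPM with Biocontrol in depleted cells. Slc44a2 (log2 −1.18, SE 0.18, adjusted p = 0.000669, edgeR) was at 37.9, 46.4 and 50.6 CPM with BioNICD1 against 56, 60.9 and 45.6 CPM with Biocontrol in depleted cells, where the groups overlapped. Slc30a1 (log2 −0.64, SE 0.12, adjusted p = 0.00243, edgeR) was at 110.2, 107 and 114 CPM with BioNICD1 against 128, 134 and 112 CPM with Biocontrol in depleted cells. Slc37a1 (log2 −2.24, SE 0.57, adjusted p = 0.0157, edgeR) was at 2.02, 2.1 and 0.339 CPM with BioNICD1 against 2.37, 2.2 and 1.69 CPM with Biocontrol there. Each of these 5 members was higher with BioNICD1 than with Biocontrol in control cells and passed no test for BioNICD1 in depleted cells.

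Slc45a4 had an interaction of −8.34 (adjusted p = 0.0336, edgeR), a fitted value that depends on the prior count because depleted cells held almost no counts. Slc45a4 lost its call without 1 of 5 of its 12 samples (adjusted p 0.0516 to 0.984), namely control BioNICD1 replicate 2, control BioNICD1 replicate 3, depleted Biocontrol replicate 2, control Biocontrol replicate 1 and control Biocontrol replicate 3. Slc20a2 (log2 −0.97, SE 0.27, adjusted p = 0.0242, edgeR) and Slc25a32 (log2 −0.49, SE 0.15, adjusted p = 0.0321, edgeR), the phosphate and the folate carrier, were negative too. Slc20a2 in the interaction lost its call without 1 of 5 of its 12 samples (adjusted p 0.0502 to 0.0723), namely control BioNICD1 replicate 2, depleted Biocontrol replicate 1, depleted Biocontrol replicate 2, control Biocontrol replicate 2 and control Biocontrol replicate 3. Slc25a32 in the interaction lost its call without 1 of 6 of its 12 samples (adjusted p 0.064 to 0.0887), namely control BioNICD1 replicate 2, control BioNICD1 replicate 3, depleted Biocontrol replicate 1, depleted Biocontrol replicate 2, control Biocontrol replicate 1 and control Biocontrol replicate 3. Slc25a29, a mitochondrial carrier of basic amino acids (log2 −2.68, SE 0.80, adjusted p = 0.0321, edgeR), and Slc29a2, a nucleoside carrier (log2 −1.92, SE 0.64, adjusted p = 0.0494, edgeR), were also among the 6 most negative. The other 16 negative members were between −1.47 and −0.46. Slc25a29 lost its call without 1 of 8 of its 12 samples (adjusted p 0.0512 to 0.0878), namely control BioNICD1 replicate 2, control BioNICD1 replicate 3, depleted BioNICD1 replicate 1, depleted BioNICD1 replicate 3, depleted Biocontrol replicate 1, depleted Biocontrol replicate 2, control Biocontrol replicate 1 and control Biocontrol replicate 2. Slc29a2 lost its call with the replicate number as a block (adjusted p = 0.0673) and without 1 of 9 of its 12 samples (0.0543 to 0.122), namely control BioNICD1 replicate 1, control BioNICD1 replicate 2, control BioNICD1 replicate 3, depleted BioNICD1 replicate 1, depleted BioNICD1 replicate 3, depleted Biocontrol replicate 1, depleted Biocontrol replicate 2, control Biocontrol replicate 1 and control Biocontrol replicate 2.

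The positive members were Slc17a5, the sialic acid exporter of lysosomes (log2 1.01, SE 0.25, adjusted p = 0.0128, edgeR), Slc16a10 (log2 0.92, SE 0.24, adjusted p = 0.017, edgeR), Slc25a40, a mitochondrial glutathione carrier (log2 0.83, SE 0.22, adjusted p = 0.0174, edgeR), Slc7a11 (log2 0.81, SE 0.18, adjusted p = 0.00864, edgeR), Slc1a4, a neutral amino acid carrier (log2 0.69, SE 0.20, adjusted p = 0.0267, edgeR), and Slc43a3, a purine nucleobase carrier (log2 0.63, SE 0.18, adjusted p = 0.0273, edgeR). Slc17a5 was at 5.95, 5.91 and 6.39 CPM with BioNICD1 against 8.62, 10.5 and 10.4 CPM with Biocontrol in control cells, and at 5.36, 8.11 and 8.58 CPM against 6.43, 5.5 and 5.78 CPM in depleted cells. All BioNICD1 libraries lay below Biocontrol in control cells, while 2 of 3 lay above all Biocontrol libraries in depleted cells. Slc16a10 in the interaction lost its call without control Biocontrol replicate 2 (adjusted p = 0.0552). Slc25a40 lost its call without control BioNICD1 replicate 2 (adjusted p = 0.0503) and without depleted Biocontrol replicate 1 (0.0503). Slc1a4 lost its call without control BioNICD1 replicate 3 (adjusted p = 0.0681), without depleted Biocontrol replicate 1 (0.0586) and without control Biocontrol replicate 3 (0.0693). Slc43a3 lost its call without 1 of 6 of its 12 samples (adjusted p 0.0519 to 0.0758), namely control BioNICD1 replicate 1, control BioNICD1 replicate 3, depleted Biocontrol replicate 1, control Biocontrol replicate 1, control Biocontrol replicate 2 and control Biocontrol replicate 3. The number of members in the interaction was 61 without depleted Biocontrol replicate 3, which stood apart, 66 without both depleted libraries that stood apart, and 18 to 21 without depleted Biocontrol replicate 1 or 2, control BioNICD1 replicate 2 or 3, or control Biocontrol replicate 1 or 2. Without both distant libraries BioNICD1 was called in 78 members in control cells. The shares of all genes called in these fits are not given, so these counts describe the members alone.

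**Figure D5:**
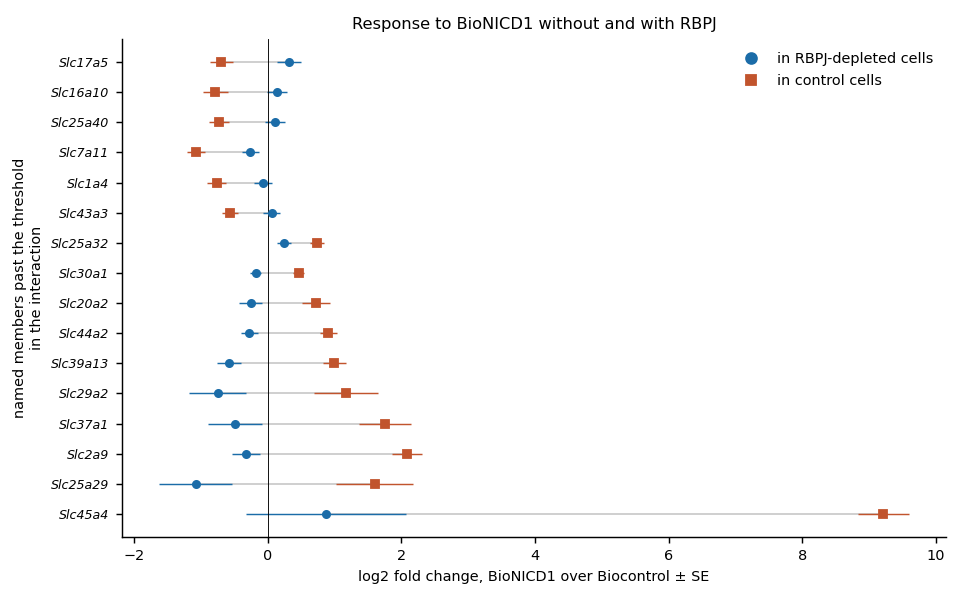
Log2 fold change with BioNICD1 over Biocontrol in RBPJ-depleted cells (circles) and in control cells (squares) for 16 of the 32 members that passed in the interaction, with a line of 1 SE to each side. The 10 negative members plotted lie further right in control cells and the 6 positive ones further left.

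Within depleted cells, BioNICD1 lowered 5 members and raised none. They were the fatty acid carrier Slc27a1 (9.65, 17.7 and 14.6 CPM with BioNICD1 against 30.5, 38.3 and 18.9 CPM with Biocontrol, log2 −1.06, SE 0.25, adjusted p = 0.0361, edgeR), Slc41a2 (2.38, 2.3 and 2.03 CPM against 3.66, 4.21 and 5.42 CPM, log2 −0.97, SE 0.21, adjusted p = 0.0227, edgeR), Slc46a3, Slc3a1, the heavy chain rBAT (4.92 ± 0.758 CPM against 8.19 ± 0.333 CPM, log2 −0.73, SE 0.16, adjusted p = 0.0261, edgeR), and Slc48a1, a heme carrier (80.2 ± 14.5 CPM against 122 ± 18.6 CPM, log2 −0.60, SE 0.14, adjusted p = 0.0279, edgeR). None of the 5 was called under every alternative. Slc27a1 lost its call without 1 of 4 of its 6 samples (adjusted p 0.0786 to 0.157), namely depleted BioNICD1 replicate 1, depleted BioNICD1 replicate 3, depleted Biocontrol replicate 1 and depleted Biocontrol replicate 2. Slc41a2 lost its call without depleted BioNICD1 replicate 1 (adjusted p = 0.0537), without depleted BioNICD1 replicate 3 (0.0701) and without depleted Biocontrol replicate 2 (0.0729). Slc46a3 lost its call without 1 of 4 of its 6 samples (adjusted p 0.066 to 0.117), namely depleted BioNICD1 replicate 1, depleted BioNICD1 replicate 3, depleted Biocontrol replicate 1 and depleted Biocontrol replicate 2. Slc3a1 lost its call without 1 of 4 of its 6 samples (adjusted p 0.0594 to 0.0969), namely depleted BioNICD1 replicate 1, depleted BioNICD1 replicate 2, depleted Biocontrol replicate 1 and depleted Biocontrol replicate 2. Slc48a1 lost its call without depleted BioNICD1 replicate 1 (adjusted p = 0.0553), without depleted Biocontrol replicate 1 (0.109) and without depleted Biocontrol replicate 2 (0.128). The count was 0 without depleted BioNICD1 replicate 1 or depleted Biocontrol replicate 2, 1 without depleted Biocontrol replicate 1, 3 without depleted BioNICD1 replicate 3, and 15 without depleted Biocontrol replicate 3.

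NICD1-ER and BioNICD1 were compared for direction, since they share no library. Of the 24 members called at 24 h of 4-OHT and the 49 called with BioNICD1 in control cells, 16 were called in both. Of these, 9 were higher in both (37.5% of the first and, among members tested in both, 18.8% of the second; 38.04% and 12.9% over all genes): Slc45a4, Slc39a13, Slc12a7, Slc2a9, Slc44a2, Slc43a2, Slc30a7, Slc9a3r1 and Slc30a1. The other 7 had opposite directions: Slc16a10, Slc46a3 and Slc39a10 were higher at 24 h and lower with BioNICD1, and Slc9a9, Slc2a6, Slc16a6 and Slc39a14 were lower at 24 h and higher with BioNICD1. Of 44 members called with GSI, 17 were also called with BioNICD1 in control cells, 14 in opposite directions and 3 in the same one (Slc2a6 and Slc39a14 among them). The 14 made up 31.8% of the calls with GSI and 29.2% of those with BioNICD1 among members tested in both, against 27.5% and 18.7% over all genes. Of the 1044 genes called in both, 61.9% had opposite directions, against 82.4% of the 17 members. Of the 686 genes called both at 24 h of 4-OHT and with BioNICD1, 33.2% had opposite directions, against 43.8% of the 16 members. Whether these shares of the members differ from those of all genes was not tested.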

How the data were processed

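RNA sequencing counts were analysed for 41 libraries of a mouse hybridoma T cell line in 16 groups. The authors deposited raw read counts per gene symbol, as integers whose sum differs between libraries; a ribosome-depleted stranded total RNA kit or others were used, per the labels' protocols, and the strand used in counting is not stated. The submitters' processing notes name TopHat2 2.1.1, Picard, deepTools and mm9 without their roles. Of 65 columns, 24 were not used. The deposited region lists and the chromatin samples were not used here.

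Members were taken by symbol and by a mean of 5 CPM in at least 1 group. The members, lists and classes were chosen with earlier results of these data known. Text names the 6 largest rises and falls among called members whose groups did not overlap (6 of each sign in the interaction), and the called members of a fixed list of carriers known from T cells; a few of these genes, and some markers, are not reported here.

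Separate models were fitted per experiment with edgeR 4.0.16 under R 4.3.3, using filterByExpr, TMM factors and 1 mean per group, with a prior count of 0.125, two-sided quasi-likelihood F-tests and Benjamini-Hochberg adjustment over all genes tested. SE is the log2 fold change over the square root of F. For the edited lines, the contrast set the average of lines 2-12 and 2-14 against the control line. Levels are TMM-normalised CPM within an experiment, with mean ± SD (n = 2 or 3 per group, and n = 4 for both edited lines together). The pairs summed differed by 0.907 (4 h) and 0.835 (8 h) in chi-square per gene, computed where counts reached 50. The other pairs of those groups were above 1. The 24 h 4-OHT pair (0.928) and the GSI pair (0.766) were kept apart. They are the only pairs of their groups among the matched columns. Ratios with 1 to 3 counts carry exact 95% conditional intervals, and these cover counting error only. A group of 3 counts per library corresponds to 0.211 to 1.26 CPM.

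Whether replicate numbers pair libraries was checked from residual correlations. In the depletion experiment same-number r was 0.433 to 0.609 and 6 of 6 libraries correlated best with their own number, so counts from a blocked fit are given beside its results. Where leaving out a library left an arm with 1 sample, that sample was assumed to vary like the other groups. Alternatives were RLE size factors, DESeq2 1.42.0, no filter on low counts, the block, each library as its own sample, and each sample left out in turn. Chosen after seeing the data were the block with each library as its own sample, the third KYOT2 libraries left out, and the depleted libraries that stood apart left out. The tests were tested on simulated counts. Promoters came from a RefSeq table of GRCm38.p6, in which 123 of 159 members had an entry. Tables and figures used Python 3.11.15, pandas 2.3.3, SciPy 1.17.1 and matplotlib 3.10.9.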

Additional observations from a re-analysis of the deposited data

Results flagged for a closer look

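The response to BioNICD1 differed between depleted and control cells by the interaction test for 16 named members. The interaction (log2, depleted minus control cells) was 1.01 for Slc17a5, 0.92 for Slc16a10, 0.83 for Slc25a40, 0.81 for Slc7a11, 0.69 for Slc1a4 and 0.63 for Slc43a3. It was −8.34 for Slc45a4, −2.68 for Slc25a29, −2.40 for Slc2a9, −2.24 for Slc37a1, −1.92 for Slc29a2, −1.57 for Slc39a13, −1.18 for Slc44a2, −0.97 for Slc20a2, −0.64 for Slc30a1 and −0.49 for Slc25a32. Slc6a13 differed between line 2-12 and line 2-14, at −4.81 on the log2 scale. Slc22a3 moved in opposite directions in the 2 depletion experiments, with a log2 fold change of 4.87 in the edited lines and −3.15 with Biocontrol, and this difference was not tested.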

How the results depend on the processing

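Directions held for every named gene under every alternative run, and calls did not. Of the results recomputed for named genes, 244 lost their call and 1367 kept it. The count of members called was, for the edited lines (25), 57 with no filter, 74 with the replicate block and 10 to 47 without 1 library; between the lines (1), 2 with DESeq2, 5 with no filter, 7 with the block and 0 without any 1 library. At 4 h (15) it was 5 with DESeq2, 29 with the block and each library as its own sample, and 9 to 18 without 1 sample; at 8 h (22) 9, 35 and 12 to 19, with 13 without the summed replicates; at 24 h (24) 14 with DESeq2, 30 with that block and 15 to 18 without 1 sample. For KYOT2 wild type against GFP (1) it was 5 with no filter, 4 with the block, 6 without the third libraries and 1 to 2 without 1 library. Without the third libraries WWAA against GFP (0) gave 4 and wild type against WWAA (3) gave 9, and wild type against WWAA gave 6 with the block and 1 to 3 without 1 library. GSI (44) gave 11 with DESeq2, 46 with the block and 20 to 40 without 1 library. BioNICD1 in control cells (49) gave 78 without the 2 distant depleted libraries, 53 with the block and 37 to 49 without 1 library. In depleted cells (5) it gave 11 with DESeq2, 14 without those libraries and 0 to 15 without 1 library. The interaction (32) gave 66 without those libraries, 33 with the block and 18 to 61 without 1 library, and depletion with Biocontrol (75) gave 53 to 82 without 1 library and 74 with the block. For most of these alternatives the share of all genes called is not given, so the counts describe the members alone. The causes were not tested. Same-number residuals correlated at 0.0349 to 0.408 for KYOT2, −0.0112 to 0.169 for NICD1-ER, 0.0268 for GSI and −0.449 to 0.549 for BioNICD1, so those numbers were taken as names. Of the libraries, 8 of 9 KYOT2, 6 of 10 NICD1-ER and 7 of 12 BioNICD1 correlated best with their own number. A replicate effect shared by the KYOT2 groups was not tested, and the main KYOT2 fit leaves it out. For GSI it was 4 of 4 libraries. With 2 groups of 2 libraries the GSI residuals mirror each other (−0.0268 for different numbers), so this score cannot tell whether the numbers pair. With 2 samples per group and 4325641 to 6327603 counts per library in the NICD1-ER and GSI experiments, small changes and members near the floor of 3 counts are the least certain.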
